A study of Homo sapiens with 4 samples.

Results

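The forkhead factor genes are the 52 protein-coding genes, of 20015 in GENCODE release 44, whose symbol begins with FOX, a letter from A to S and a number. They fall into 19 lettered subfamilies on 19 chromosomes. One of them, FOXL2NB, is named for its neighbour FOXL2 and is not itself a forkhead protein. Binding of Smad2 and Smad3 around these genes was read from 4 lists of ChIP-seq peaks made in MDA-MB-231, a metastatic human breast cancer cell line. The cells carried a bacterial artificial chromosome with Smad2 or Smad3 fused to a LAP tag, which contains GFP, and chromatin was precipitated with an anti-GFP antibody. Each tagged population was left untreated or received 10 ng/mL TGFβ-1 for 2 h, giving 4 conditions with 1 library each. All 4 groups thus share the parental line, the drug selection and the sorting for GFP, and all keep their own untagged Smads, so that an endogenous Smad contributes to a list only through complexes that hold the tagged protein. The sorted cells are transfected populations rather than named clones.

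Forkhead factors bind DNA through a winged-helix domain and regulate development, the cell cycle and metabolism. Several meet the TGFβ pathway directly. FOXH1 is a DNA-binding partner that brings activated Smad complexes to Nodal and activin target genes, and the FOXO proteins, which Akt phosphorylation keeps out of the nucleus, cooperate with Smad3 and Smad4 at cytostatic genes. FOXC1, FOXC2, FOXF2 and FOXQ1 are associated with epithelial-mesenchymal transition, a program that TGFβ induces in breast epithelium. The peaks show where tagged Smads were found near the genes that encode these factors. They do not measure expression of the genes or binding of the factors.

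To show what was bound, the reference sequence of 200 bp around the summit is given for the strongest LAP-Smad3 promoter peak at genes with promoter peaks in both TGFβ-1 lists, chosen among the top 8 by −log10 q, and for FOXO genes with a promoter peak. Windows that touch an annotated untranslated region, among them those of FOXP2 and FOXO1, are not shown. The LAP-Smad2 window of FOXP4 was added after its position was seen. All are hg38, plus strand, and capitals mark the Smad-binding half-site CAGAC or its reverse complement GTCTG and the forkhead core TGTTTGC.
FOXK2, LAP-Smad3, chr17:82586296-82586495: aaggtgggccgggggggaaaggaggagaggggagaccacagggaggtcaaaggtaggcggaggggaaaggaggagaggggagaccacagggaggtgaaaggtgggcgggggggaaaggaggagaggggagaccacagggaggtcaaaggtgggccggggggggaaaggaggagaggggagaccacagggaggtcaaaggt
FOXP4, LAP-Smad3, chr6:41547397-41547596: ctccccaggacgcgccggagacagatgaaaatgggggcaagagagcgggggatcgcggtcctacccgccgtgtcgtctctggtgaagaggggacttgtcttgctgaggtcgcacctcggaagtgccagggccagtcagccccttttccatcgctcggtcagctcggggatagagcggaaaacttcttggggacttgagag
FOXP4, LAP-Smad2, chr6:41546967-41547166: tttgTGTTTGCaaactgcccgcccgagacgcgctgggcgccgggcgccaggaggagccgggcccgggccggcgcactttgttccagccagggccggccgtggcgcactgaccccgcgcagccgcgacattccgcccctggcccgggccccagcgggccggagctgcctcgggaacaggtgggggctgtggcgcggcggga
FOXD4L5, LAP-Smad3, chr9:65284037-65284236: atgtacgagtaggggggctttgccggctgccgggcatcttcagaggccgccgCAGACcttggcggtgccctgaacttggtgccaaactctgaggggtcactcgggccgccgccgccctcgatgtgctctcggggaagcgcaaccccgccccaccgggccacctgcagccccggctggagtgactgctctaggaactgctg
FOXQ1, LAP-Smad3, chr6:1310848-1311047: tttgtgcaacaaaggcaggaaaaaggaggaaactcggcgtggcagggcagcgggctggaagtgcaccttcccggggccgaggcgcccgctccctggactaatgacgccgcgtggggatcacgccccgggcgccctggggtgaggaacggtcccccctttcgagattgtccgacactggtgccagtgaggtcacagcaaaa
FOXN3, LAP-Smad3, chr14:89417740-89417939: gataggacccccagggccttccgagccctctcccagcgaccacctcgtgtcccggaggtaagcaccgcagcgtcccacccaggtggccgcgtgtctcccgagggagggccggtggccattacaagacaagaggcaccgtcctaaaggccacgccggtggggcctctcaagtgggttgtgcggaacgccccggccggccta
FOXD1, LAP-Smad3, chr5:73449079-73449278: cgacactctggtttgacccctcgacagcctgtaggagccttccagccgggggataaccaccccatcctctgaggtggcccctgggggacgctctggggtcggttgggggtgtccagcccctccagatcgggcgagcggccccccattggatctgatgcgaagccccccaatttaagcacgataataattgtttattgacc
FOXO3, LAP-Smad2, chr6:108561319-108561518: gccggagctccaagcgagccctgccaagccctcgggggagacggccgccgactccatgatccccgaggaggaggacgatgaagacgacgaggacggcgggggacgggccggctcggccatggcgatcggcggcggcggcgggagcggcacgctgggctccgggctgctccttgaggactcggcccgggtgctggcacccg
FOXO6, LAP-Smad3, chr1:41362784-41362983: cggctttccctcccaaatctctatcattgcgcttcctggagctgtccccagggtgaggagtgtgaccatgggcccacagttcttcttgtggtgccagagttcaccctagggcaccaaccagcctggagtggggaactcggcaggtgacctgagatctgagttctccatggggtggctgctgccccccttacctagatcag
The FOXK2 window is a tandem array, in which the most repeated 20-mer occurs 4 times at a spacing of 48 to 50 bp. The FOXD4L5 window has near-identical copies at the other genes of its group. The other windows are largely unique sequence, except that 75.7% of the 20-mers at FOXO3 occur at least once more in the genome.

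A peak was assigned to a gene where it overlapped the gene span widened by 10 kb, and was called a promoter peak where it came within 3 kb of any annotated start. Distances are from the summit to the nearest annotated start of the gene, unless said otherwise. Each peak has 2 scores from the authors' peak caller, its fold over local background and its −log10 q-value, and its rank is given as a percentile of −log10 q within its own list. Scores are not on a common scale between lists. The 4 lists held between 3511 and 62551 peaks. The lists hold no read totals, so depth is unknown and may set how many peaks a list has. Labels and deposited names of the untreated pair contradict each other on which Smad was tagged, so they are called the library labelled LAP-Smad2 untreated and, likewise, the library labelled LAP-Smad3 untreated, and no direction is drawn from them. With 1 library per condition there is no replicate check and no test between conditions. The intervals given are Wilson 95% intervals and cover counting error only.

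Most forkhead genes had a tagged Smad nearby, about as often as other genes did. In the LAP-Smad3 TGFβ-1 list, 37 of 52 had a peak within 10 kb, or 71.2% (57.7% to 81.7%), against 74.3% of all protein-coding genes. In the LAP-Smad2 TGFβ-1 list, 29 had one, or 55.8% (42.3% to 68.4%), against 55.9%. Promoter peaks were found at 20 forkhead genes in each TGFβ-1 list, or 38.5% (26.5% to 52.0%), against 35.4% of all genes for LAP-Smad2 and 40.2% for LAP-Smad3. Both shares therefore lay at the level of protein-coding genes in general. Of the 20 LAP-Smad3 promoter genes, 6 were FOXD4 and its near-identical copies. The LAP-Smad3 shares and intervals count them as separate genes, though they are not 6 independent observations. Without them and FOXO3B, 17 of 45 genes had a LAP-Smad2 promoter peak and 14 of 45 a LAP-Smad3 one.

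Forkhead genes are short, with a median span of 5.93 kb against 27.5 kb for all protein-coding genes, and a short gene has less room for a peak. Weighted to the span of the forkhead genes, other genes would give 48.3% for LAP-Smad2 and 65.9% for LAP-Smad3 within 10 kb. Weighted to their number of start sites, they would give 29.1% and 31.1% for promoters. These 4 values lie below the forkhead shares, but within their intervals. Without the FOXD4 group and FOXO3B, at 14 of 45 genes, the LAP-Smad3 promoter share was about the weighted 31.1%. Among the 18 forkhead genes of 12 kb or more, 10 had a LAP-Smad2 promoter peak, or 55.6%, against 39.5% of other genes of that length. A LAP-Smad3 promoter peak was at 8, or 44.4%, against 42.8%. Among the 34 shorter ones the LAP-Smad2 share was 29.4% against 25.4%, and the LAP-Smad3 share 35.3% against 34.1%. These classes were matched on span and not on starts, of which FOXP1 has 67 and FOXP2 has 30.

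**Figure D1:**
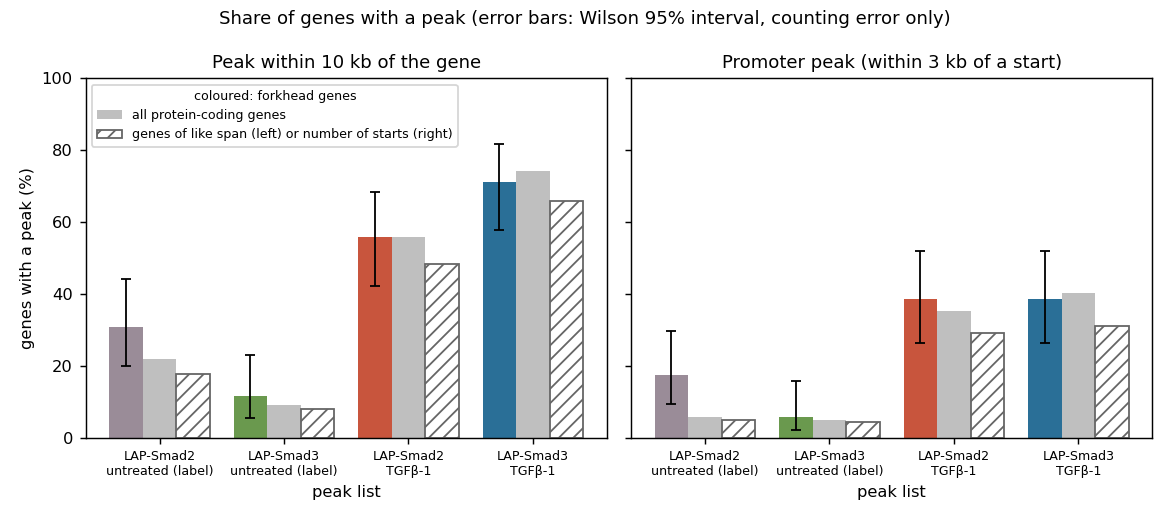
Share of genes (y axis, %) with a peak within 10 kb (left) or a promoter peak (right) in each of the 4 lists; coloured bars are the 52 forkhead genes with Wilson 95% intervals, grey bars all 20015 protein-coding genes and hatched bars other genes weighted to the spans or start sites of the forkhead genes. In the TGFβ-1 lists grey and hatched bars fall inside the intervals, and in the promoter panel the library labelled LAP-Smad2 untreated shows 17.3% against 5.66%.

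The combination of lists was equally close to the background. Both TGFβ-1 lists held a peak within 10 kb of 23 forkhead genes, or 44.2%, against 47.0% of all genes, and a promoter peak at 10, or 19.2%, against 18.2%. These 10 were FOXD1, FOXD4L4, FOXD4L5, FOXI1, FOXJ3, FOXK2, FOXN3, FOXP2, FOXP4 and FOXQ1. A promoter peak in the LAP-Smad2 list alone was found at FOXC1, FOXI3, FOXJ1, FOXK1, FOXO1, FOXO3, FOXO3B, FOXP1, FOXR1 and FOXS1. A promoter peak in the LAP-Smad3 list alone was found at FOXD3, FOXD4, FOXD4L1, FOXD4L3, FOXD4L6, FOXF2, FOXL3, FOXN1, FOXN4 and FOXO6. At least 1 list held a peak within 10 kb of 45 forkhead genes, or 86.5%, against 84.4% of all genes. FOXB1, FOXC2, FOXE3, FOXI2, FOXL1 and FOXO4 were among those without a peak in any list. FOXA1 and FOXR2 had a peak only in the list labelled LAP-Smad2 untreated.

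**Figure D2:**
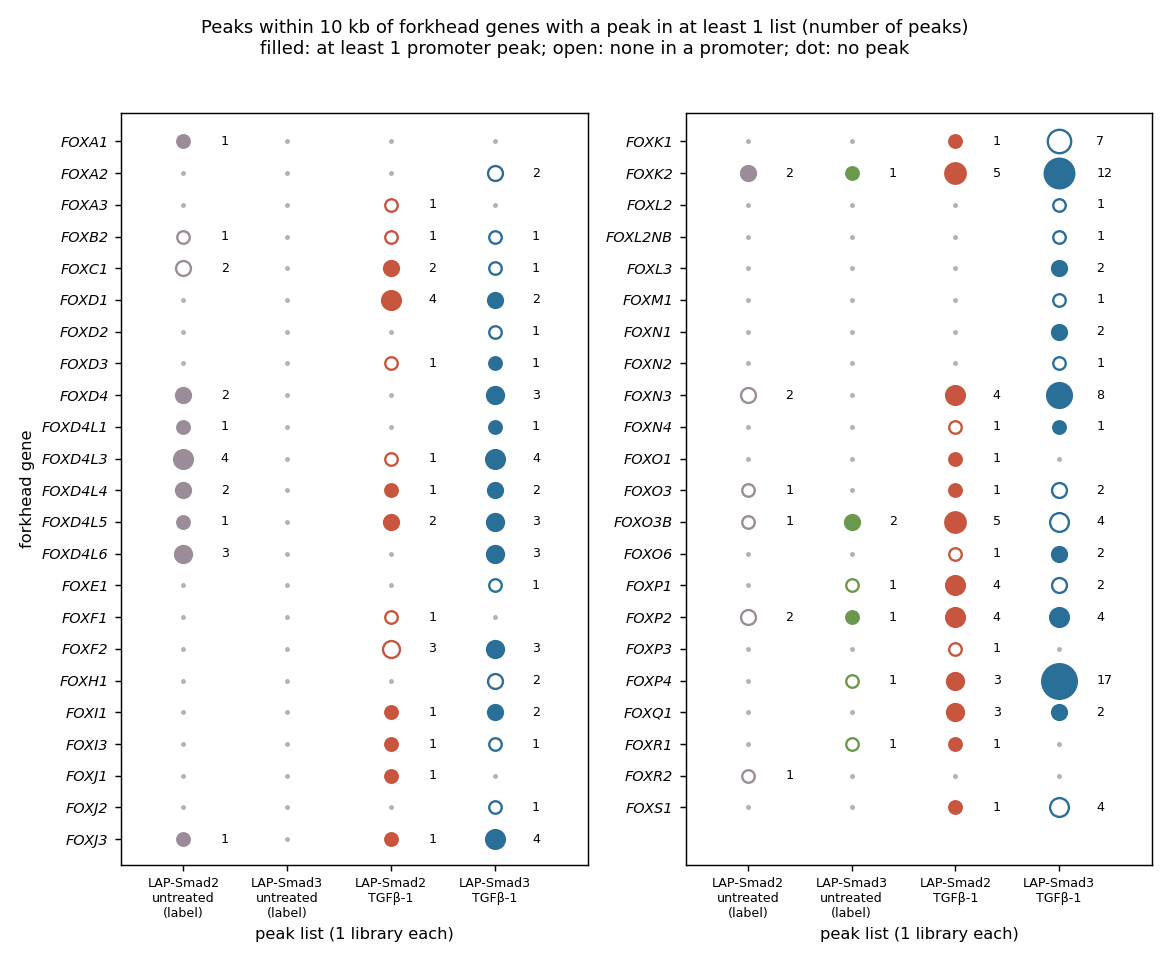
Peaks within 10 kb of the 45 forkhead genes with a peak in at least 1 list (rows) in the 4 lists (columns, 1 library each); numbers give the peaks and circle area grows with them, filled circles have at least 1 promoter peak, open circles have none and small dots mark no peak. FOXP4 with 17 and FOXK2 with 12 LAP-Smad3 peaks stand out, and the FOXD4 group fills the first column.

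FOXP4, which encodes a transcriptional repressor of the FOXP subfamily, had more LAP-Smad3 peaks than any other forkhead gene. Its 56.0 kb span and flanks on chromosome 6 held 17 LAP-Smad3 TGFβ-1 peaks, of which 8 were in promoters, 5 in introns and 4 in exons. Among the genes of its length class, 0.856% had as many, and the median was 2.0. FOXP4 is the highest of the 52 genes by this same count, so its standing is a description and was not tested. The same holds for the standings of other genes given below. None of the 17 windows was repeat-derived, meaning that at least 50% of the 20-mers of a window occur 100 times or more in hg38. The LAP-Smad2 TGFβ-1 list held 3 peaks there, a number that 16.0% of genes of the class reached.

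Around the first FOXP4 start, LAP-Smad3 peaks flanked a LAP-Smad2 peak without overlapping it. Measured from that 5′ end, LAP-Smad3 summits lay 937 and 274 bp upstream and 1116 and 2024 bp downstream, and the LAP-Smad2 summit lay between them at 686 bp downstream. The LAP-Smad2 window there had 77.0% G+C, and the LAP-Smad3 windows had 56.5% to 62.0%. The LAP-Smad3 peak at 1116 bp had a fold enrichment of 6.58 and a −log10 q of 8.47, and the LAP-Smad2 peak had 2.67 and 4.03. The starts of the antisense gene FOXP4-AS1 lie among these summits, 36 to 699 bp from the LAP-Smad3 ones. The highest-ranked LAP-Smad3 peaks of the gene were inside it, an intronic peak with a fold of 7.15 and a −log10 q of 10.1 and an exonic peak with 6.52 and 9.48. Of the untreated lists, the one labelled LAP-Smad3 had 1 FOXP4 peak, in an intron, which overlapped a LAP-Smad2 TGFβ-1 peak, and the other had none.

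FOXK2, whose FOXK subfamily represses autophagy genes that FOXO proteins activate, held the forkhead peak with the highest −log10 q in each TGFβ-1 list. In the LAP-Smad2 TGFβ-1 list this peak, at chr17:82586149-82586593, had a fold of 8.44 and a −log10 q of 35.0, at the 99.5th percentile of that list. It lay 265 bp from an internal start of the gene. The same place was called in the LAP-Smad3 TGFβ-1 list, with a fold of 3.61 and a −log10 q of 16.3. It was called again in the untreated library labelled LAP-Smad3, with 6.90 and 19.8. It was the one forkhead promoter at which LAP-Smad2 and LAP-Smad3 summits fell within 100 bp of each other, 1 bp apart. It is also the tandem array printed above, and 89.5% of its 20-mers occur at least once more in hg38. The gene held 12 LAP-Smad3 peaks in all, 6 of them in promoters, and 5 LAP-Smad2 peaks, numbers that 9.89% and 14.1% of genes of its length class reached. Another LAP-Smad3 peak, 249 bp upstream of a later start, covered a second array with a unit of 51 bp. The window of that peak held 3 CAGAC half-sites. Of its intronic LAP-Smad3 windows, 2 were repeat-derived.

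FOXK1, the paralog of FOXK2, differed from it in where the peaks lay. The genes also differ in annotated starts, 3 at FOXK1 and 12 at FOXK2, and promoter peaks are counted at every start. The 7 LAP-Smad3 peaks of FOXK1 were all within the gene body, 3 in introns and 4 in exons, of which 1 exonic window was repeat-derived, and none was in a promoter. Its 1 LAP-Smad2 peak was in the promoter, 450 bp downstream of a start, with a fold of 3.43 and a −log10 q of 3.10. Neither untreated list had a FOXK1 peak.

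FOXQ1, FOXF2 and FOXC1 lie next to each other in 322 kb of chromosome 6, and all 3 had peaks in both TGFβ-1 lists. At FOXQ1, a LAP-Smad2 summit lay 146 bp downstream of the single start, with a fold of 3.46 and a −log10 q of 4.76, and a LAP-Smad3 summit lay 1150 bp upstream, with 5.44 and 5.32. A second site, with summits 11920 and 11854 bp downstream and 4 and 70 bp from a start of LINC01394, was in both lists. FOXQ1 had 3 LAP-Smad2 peaks, which 4.66% of genes of its length class reached, and 2 LAP-Smad3 peaks, which 25.4% reached. Neither untreated list had a peak at FOXQ1.

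At FOXF2 each TGFβ-1 list held 3 peaks and none of them overlapped. The LAP-Smad3 promoter peak lay 1747 bp downstream of the start, with a fold of 5.70 and a −log10 q of 5.90. The LAP-Smad2 peaks lay 10013 bp upstream, in the intron at 3260 bp and 12941 bp downstream, with folds from 3.22 to 3.56. The microRNA gene MIR6720, downstream of the FOXF2 start, was the nearest start for 5 of these 6 peaks. At FOXC1 the LAP-Smad3 peak lay 5981 bp upstream with a fold of 6.53 and a −log10 q of 8.02, at the 92.2nd percentile, and nearer to a start of FOXCUT. A LAP-Smad2 peak lay 5217 bp upstream, and another 1920 bp downstream of the start had a fold of 2.54 and a −log10 q of 2.62, at the 4.74th percentile. Downstream of FOXC1 lay 2 further peaks, found in the untreated list labelled LAP-Smad2 and in no other.

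The whole stretch from FOXQ1 to FOXC1, with 10 kb on each side, held 18 LAP-Smad2 and 23 LAP-Smad3 TGFβ-1 peaks, or 5.59 and 7.15 per 100 kb. The genome held 0.913 and 2.13 per 100 kb, and the widened spans of all protein-coding genes held 1.28 and 2.86. The libraries labelled LAP-Smad2 and LAP-Smad3 untreated held 4 and 3 peaks in the stretch. These were 1.24 and 0.932 per 100 kb, against 0.384 and 0.120 in the genome, so the density was not particular to the TGFβ-1 lists. Another forkhead cluster, FOXF1, FOXC2 and FOXL1 in 93 kb of chromosome 16, held 1 peak of each TGFβ-1 list, or 1.08 per 100 kb. FOXF1 had a LAP-Smad2 peak 5647 bp downstream of its start with a −log10 q of 2.54, and FOXC2 and FOXL1 had none. These stretches were chosen after the values of their genes were seen. The first also holds part of GMDS and the second part of MTHFSD.

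FOXD1 had 4 LAP-Smad2 TGFβ-1 peaks, a number that 1.77% of genes of its length class reached, and 2 LAP-Smad3 peaks. In each list 1 of these windows was repeat-derived, and these 2 peaks overlapped. For all 4 LAP-Smad2 peaks the nearest start was not that of FOXD1 but that of FOXD1-AS1 or LINC01385. Of the LAP-Smad2 peaks, 2 were in promoters, 2414 bp downstream of a start and 2862 bp upstream of one, the latter 141 bp from a start of LINC01385. The LAP-Smad3 promoter peak lay 402 bp upstream, with a fold of 4.97 and a −log10 q of 3.84. The closest LAP-Smad2 and LAP-Smad3 promoter summits of this gene were 2460 bp apart. FOXS1, a forkhead gene of vascular mural cells, had 4 LAP-Smad3 peaks between 9309 and 11376 bp downstream of its start and 1 LAP-Smad2 promoter peak at 2510 bp. The nearest start was that of MYLK2 for 3 of the 4 LAP-Smad3 peaks.

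**Figure D3:**
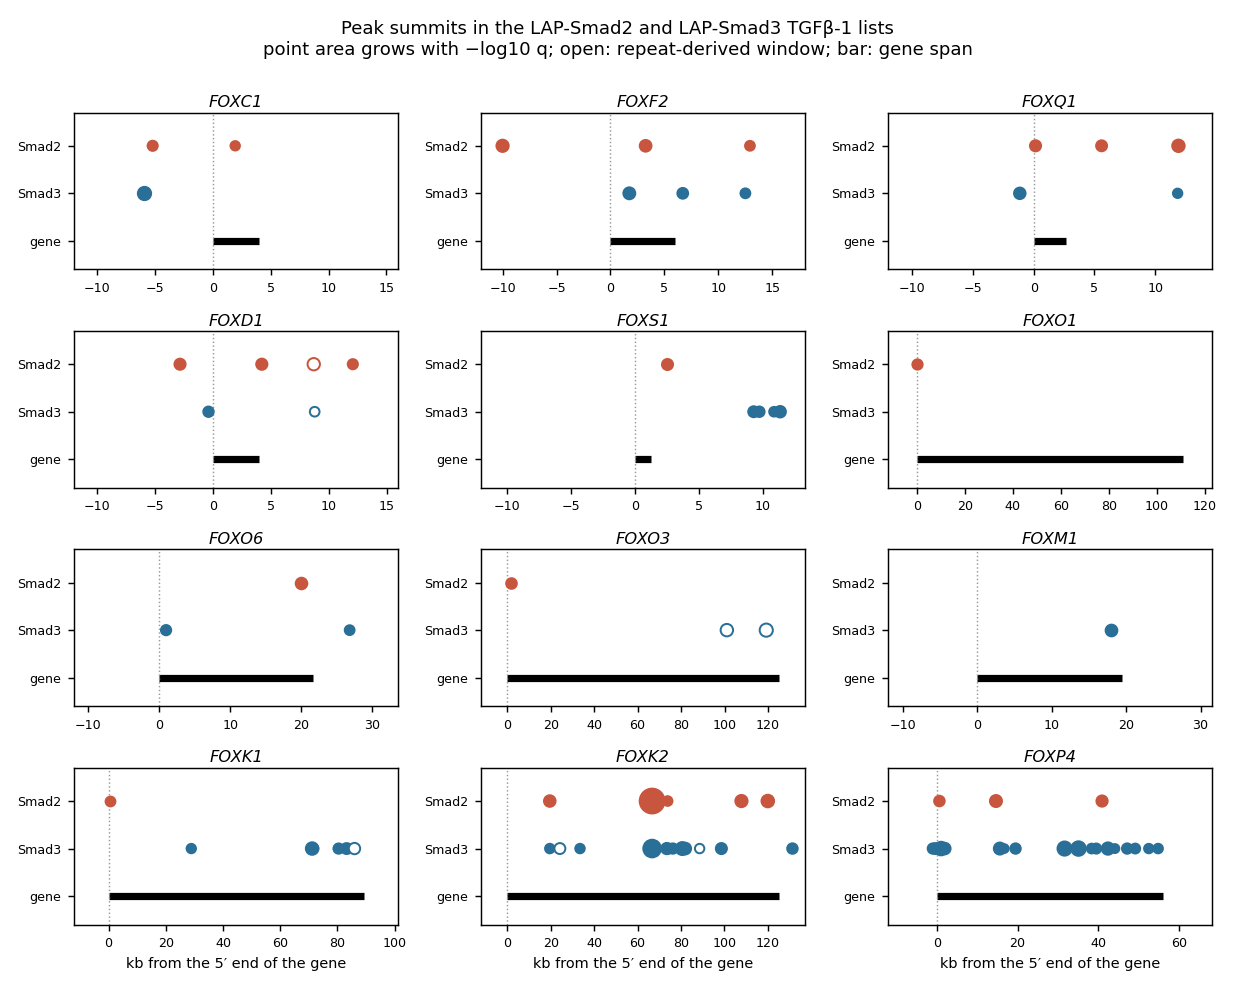
Summits of LAP-Smad2 (red, upper row) and LAP-Smad3 (blue, lower row) TGFβ-1 peaks at 12 forkhead genes, against the distance in kb from the 5′ end of the gene (x axis); black bars are gene spans, point area grows with −log10 q and open points are repeat-derived windows. FOXO1 carries 1 LAP-Smad2 point at its start, the 2 LAP-Smad3 points of FOXO3 are open, and the 17 LAP-Smad3 points of FOXP4 run along the gene.

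The FOXO genes encode the forkhead factors best known as partners of Smad3 and Smad4, and 4 of the 5 had a promoter peak after TGFβ-1. FOXO1, FOXO3 and FOXO3B had theirs in the LAP-Smad2 list, where 35.4% of all genes have one, and FOXO6 in the LAP-Smad3 list, where 40.2% do. The 4 genes are counted over both lists together, and 42.6% of all genes had a promoter peak in neither. The LAP-Smad2 promoter peaks of FOXO3B were a repeat-derived window and a peak nearer to a start of ZNF286B. FOXO1 had a single peak in the 4 lists, a LAP-Smad2 TGFβ-1 peak 169 bp downstream of a start with a fold of 3.54, a −log10 q of 3.65 and 76.5% G+C. FOXO3 had a LAP-Smad2 promoter peak at 502 bp with a fold of 3.95 and a −log10 q of 4.12. Its 2 LAP-Smad3 peaks were intronic, with folds of 5.85 and 7.10, and both windows were repeat-derived, as was that of its 1 peak in the library labelled LAP-Smad2 untreated.

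FOXO6 had the opposite arrangement, a LAP-Smad3 promoter peak 953 bp downstream of a start with a fold of 4.59 and a −log10 q of 3.62, and a LAP-Smad2 peak in an exon with 4.18 and 5.43. FOXO4, the X-linked member, had no peak in any list. FOXO3B, a copy of FOXO3 on chromosome 17, had 5 LAP-Smad2 peaks, a number that 1.13% of genes of its length class reached, and 4 LAP-Smad3 peaks. At least 51.9% of the 20-mers of each of these windows occur elsewhere, and 5 of the 9 windows were repeat-derived. Reads from FOXO3 and FOXO3B that fall in shared sequence cannot be told apart.

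The genes that control FOXO activity, among them the Akt and SGK kinases, the PI3K subunits and the acetylases, are mostly long genes, and peaks near them were counted beside genes of like span. Of 18 such genes, 17 had a LAP-Smad3 TGFβ-1 peak (94.4%, all genes 74.3%, like-span genes 82.6%) and 13 a LAP-Smad2 peak (72.2%, all genes 55.9%, like-span genes 64%), with medians of 3.0 and 1.0 peaks against 2.0 and 1.0 for all genes. Promoter peaks were at 13 of the 18 in the LAP-Smad3 list (72.2%, all genes 40.2%, genes with like numbers of starts 55.5%). In the LAP-Smad2 list they were at 11 (61.1%, all genes 35.4%, genes with like numbers of starts 44.8%). AKT1, the kinase that exports FOXO proteins from the nucleus, had 10 LAP-Smad3 peaks, 6 in promoters, and no LAP-Smad2 peak, while AKT2 had 5 of each. PDPK1, which activates Akt, had 9 and 1. SIRT1, a FOXO deacetylase, had 1 LAP-Smad2 promoter peak and no LAP-Smad3 peak.

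Of 15 genes regulated by FOXO proteins with Smads, 13 had a LAP-Smad3 peak (86.7%, all genes 74.3%, like-span genes 69.9%) and 6 a LAP-Smad2 peak (40.0%, all genes 55.9%, like-span genes 51.7%), with medians of 2.0 and 0.0. CDKN1A, the cell-cycle inhibitor p21, had 4 peaks in each list, of which 3 LAP-Smad2 peaks and 1 LAP-Smad3 peak were in promoters. OVOL1 had 7 LAP-Smad3 peaks, CCND1 had 6 and the stress gene GADD45B had 4, with no LAP-Smad2 peak at any of the 3. CDKN2B, the cell-cycle inhibitor p15, had no peak in any list.

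FOXH1, the Smad partner of Nodal signaling, had no promoter peak in any list. Its 2 peaks were both in the LAP-Smad3 TGFβ-1 list, 5226 bp upstream with a fold of 5.77 and a −log10 q of 6.92, and 11739 bp downstream with 5.32 and 5.15. The upstream window was repeat-derived and nearer to a start of PPP1R16A. Of 12 genes regulated through FOXH1, 7 had a LAP-Smad3 peak (58.3%, all genes 74.3%, like-span genes 64.5%) and 6 a LAP-Smad2 peak (50%, all genes 55.9%, like-span genes 45.9%). Promoter peaks were at 1 in the LAP-Smad3 list (8.33%, all genes 40.2%, genes with like numbers of starts 33.5%). In the LAP-Smad2 list they were at 4 (33.3%, all genes 35.4%, genes with like numbers of starts 31.0%). NODAL, MIXL1 and FGF8 were among the genes with a LAP-Smad2 promoter peak, and FGF8 had the LAP-Smad3 one. LEFTY1 and CER1 had no peak in any list, and LEFTY2 had a promoter peak in the library labelled LAP-Smad3 untreated only.

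FOXM1, the driver of mitotic gene expression, had 1 peak, a LAP-Smad3 TGFβ-1 peak in an exon with a fold of 6.07 and a −log10 q of 5.63, nearer to a start of ITFG2. FOXA1, the pioneer factor of luminal breast cells, had 1 promoter peak in the library labelled LAP-Smad2 untreated, 1787 bp downstream of an internal start with a fold of 5.65 and a −log10 q of 5.76. FOXA2 had 2 LAP-Smad3 peaks near LINC00261 and FOXA3 had 1 LAP-Smad2 peak in an exon. None of the FOXA genes had a promoter peak after TGFβ-1.

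In the long genes FOXN3, FOXP1 and FOXP2, LAP-Smad3 TGFβ-1 peaks were intronic except for 1 promoter peak each at FOXN3 and FOXP2. FOXN3, a checkpoint-linked repressor of 494 kb, had 8 LAP-Smad3 and 4 LAP-Smad2 TGFβ-1 peaks, which 21.6% and 21.3% of genes of its length class reached. Its LAP-Smad2 intronic peak with a fold of 6.13 and a −log10 q of 10.5 overlapped a LAP-Smad3 peak in unique sequence. Its LAP-Smad2 and LAP-Smad3 promoter peaks lay at different starts, 195879 bp apart, and the LAP-Smad2 one was repeat-derived. FOXP1 had LAP-Smad2 promoter peaks 1 bp downstream and 529 bp upstream of starts, with 77.5% and 63.5% G+C, and its 2 LAP-Smad3 peaks were intronic and repeat-derived. FOXP2, the gene linked to speech, had LAP-Smad2 promoter peaks 2797 and 1324 bp upstream and a LAP-Smad3 promoter peak 97 bp upstream with a fold of 6.86 and a −log10 q of 7.52. FOXP3, the regulatory T cell factor, had 1 LAP-Smad2 peak, 13 bp from a start of PPP1R3F.

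Among the remaining promoters, FOXR1 had the highest-ranked LAP-Smad2 peak, 87 bp downstream of a start with a fold of 5.10 and a −log10 q of 9.69, at the 93.7th percentile. FOXJ1, the regulator of motile cilia, had a LAP-Smad2 peak 55 bp from its start with a fold of 3.34. FOXJ3 had a LAP-Smad2 summit 2 bp from a start with 79.5% G+C, and its LAP-Smad3 promoter peaks were repeat-derived. FOXI1 had a LAP-Smad2 and a LAP-Smad3 promoter peak that overlapped, with summits 133 bp apart and folds of 4.27 and 4.56. FOXI3 had a LAP-Smad2 promoter peak at the 2.94th percentile, with a −log10 q of 2.44. LAP-Smad3 promoter peaks at FOXD3, FOXN1 and FOXN4 had folds of 5.78, 5.52 and 3.86, and FOXD3 and FOXN4 also had 1 LAP-Smad2 peak each outside their promoters.

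Peaks without a promoter call completed the account. FOXB2 had 1 in each TGFβ-1 list and 1 in the library labelled LAP-Smad2 untreated, which overlapped the LAP-Smad2 TGFβ-1 peak. A single LAP-Smad3 peak was listed for FOXD2, FOXE1, FOXJ2 and FOXN2, and FOXL2 and FOXL2NB shared one. FOXL3 had 2, of which the one in its promoter was repeat-derived. Per 100 kb of widened span, the subfamilies with at least 3 members ran from 0.00 (FOXL) to 4.44 (FOXD) LAP-Smad2 peaks. For LAP-Smad3 they ran from 1.66 (FOXP) to 9.87 (FOXD), beside 1.28 and 2.86 over all genes. Of the FOXD peaks, 4 of 9 LAP-Smad2 and 16 of 20 LAP-Smad3 were at FOXD4 copies, whose reads cannot be assigned to 1 gene. These densities were not matched for length, and median spans were 2486 bp for FOXD and 331725 bp for FOXP.

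The FOXD4 group supplied most of the forkhead promoters in the library labelled LAP-Smad2 untreated. FOXD4 and its copies FOXD4L1, FOXD4L3, FOXD4L4, FOXD4L5 and FOXD4L6, on chromosomes 9 and 2, were 6 of the 9 forkhead genes with a promoter peak in that list, or 17.3% (9.38% to 29.7%) of the family against 5.66% of all genes. Within 10 kb the list held peaks at 16 genes, or 30.8% (19.9% to 44.3%), against 22%. Without the FOXD4 group and FOXO3B, 9 of 45 had a peak within 10 kb and 3 of 45 a promoter peak. The remaining promoters were those of FOXA1, FOXJ3 and FOXK2.

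The same 6 copies had a promoter peak in the LAP-Smad3 TGFβ-1 list. The FOXD4L5 window printed above has counterparts of 96.5% to 99.0% identity at the other 5 genes, and a peak covered it at all 6 genes in the untreated library labelled LAP-Smad2, at 5 in the LAP-Smad3 TGFβ-1 list, and at none in the remaining lists. The window of the strongest LAP-Smad3 peak of FOXD4L6, with counterparts of 95.5% to 98.5% identity, was less evenly covered, at 2 genes in the untreated library labelled LAP-Smad2, at 3 in the LAP-Smad3 and 2 in the LAP-Smad2 TGFβ-1 list. Folds at these genes ran up to 10.5 in the library labelled LAP-Smad2 untreated, at FOXD4L6, and to 7.12 in the LAP-Smad3 TGFβ-1 list, at the same gene. All 33 windows of the group consisted mostly of 20-mers found more than once in hg38, at least 71.8% of them. Reads from such copies cannot be assigned to 1 gene, and how the alignment placed them is not given in the sources used here, so the 6 genes are not 6 independent observations.

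**Figure D4:**
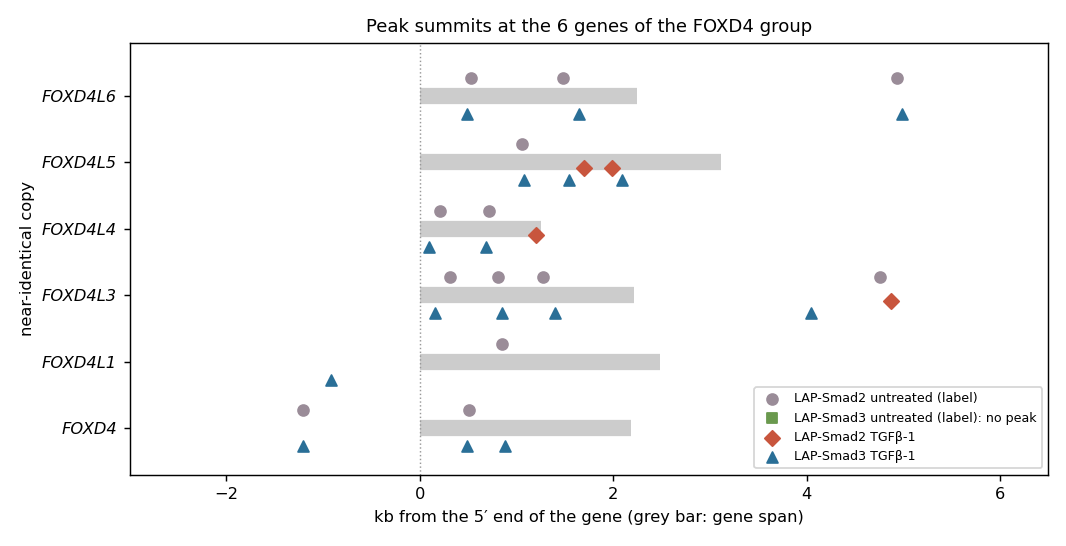
Peak summits of the 4 lists (symbols) at the 6 genes of the FOXD4 group (rows), against the distance in kb from the 5′ end of the gene (x axis, grey bars are gene spans). Every gene has at least 1 circle, from the library labelled LAP-Smad2 untreated, and at least 1 triangle, from the LAP-Smad3 TGFβ-1 list, and the list labelled LAP-Smad3 untreated has no peak at these genes.

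For the library labelled LAP-Smad2 untreated, overlap with the LAP-Smad3 TGFβ-1 list at the forkhead genes rested mostly on the FOXD4 group. Of 27 peaks of the library labelled LAP-Smad2 untreated, 15 overlapped a LAP-Smad3 TGFβ-1 peak, or 55.6% (37.3% to 72.4%), and 3 a LAP-Smad2 TGFβ-1 peak, or 11.1% (3.85% to 28.1%). Over all genes these shares were 40.3% and 33.7%. Of the 15, 11 were at the FOXD4 group, whose copies are not independent observations. At genes other than the FOXD4 group and FOXO3B, 3 of 13 peaks overlapped a LAP-Smad3 and 2 a LAP-Smad2 TGFβ-1 peak. Of the 7 peaks labelled LAP-Smad3 untreated, 6 overlapped a LAP-Smad2 and 2 a LAP-Smad3 TGFβ-1 peak, beside 61.8% and 19.3% over all genes. That library had peaks at FOXK2, FOXO3B, FOXP1, FOXP2, FOXP4 and FOXR1, or 11.5% (5.40% to 23%) of the family against 9.15%, and promoter peaks at FOXK2, FOXO3B and FOXP2, or 5.77% (1.98% to 15.6%) against 4.91%.

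After TGFβ-1, 110 LAP-Smad3 and 57 LAP-Smad2 peaks lay within 10 kb of forkhead genes. LAP-Smad3 peaks were thus 65.9% (58.4% to 72.6%) of the peaks, against 69.8% over all protein-coding genes and 70% in the whole lists. Without FOXP4 and FOXK2 the share was 62.3% (53.7% to 70.2%). The nearest start of any gene belonged to the forkhead gene for 63.2% of the LAP-Smad2 and 63.1% of the LAP-Smad3 assignments. In promoters the LAP-Smad3 share was 60.3% (48.4% to 71.1%), from 41 and 27 peaks, against 61.0%. The share depended on the length of the lists, and with each list limited to its 26828 highest-ranked peaks it was 40.6% at the forkhead genes, 48.6% over all genes and 50% in the whole lists by construction. A LAP-Smad3 peak within 10 kb was then left at 23 forkhead genes, or 44.2% against 48.5% of all genes, and a LAP-Smad3 promoter peak at 12, or 23.1% against 20.8%. Of the 57 LAP-Smad2 peaks, 10 overlapped a LAP-Smad3 peak, or 17.5% (9.82% to 29.4%), against 21.6% over all genes. The 10 LAP-Smad3 peaks with such an overlap were 9.09% of their 110, against 9.35%.

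Promoter peaks of the tagged Smads differed in position and base composition, at the forkhead genes as at others. LAP-Smad2 promoter summits lay a median of 502 bp from the nearest start and 48.1% (30.7% to 66.0%) lay within 500 bp. LAP-Smad3 promoter summits lay a median of 953 bp away and 24.4% (13.8% to 39.3%) lay within 500 bp. Over all genes the medians were 302 and 931 bp, and the shares 64.3% and 34.3%. The 200 bp around the summit had 68.9% ± 5.87 G+C (SD over 27 peaks) for LAP-Smad2 and 63.0% ± 4.86 (SD over 41 peaks) for LAP-Smad3, beside 69.0% and 60.1% over all genes. LAP-Smad3 promoter windows of forkhead genes were thus richer in G+C than those of all genes, and without the FOXD4 group and FOXO3B they had 61.1%.

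Within the 10 genes with promoter peaks in both TGFβ-1 lists, the LAP-Smad2 windows were richer in G+C at 6, with a median difference of 4.25 percentage points and a range from −9.50 at FOXN3 to 22.5 at FOXJ3. The 4 exceptions were FOXD4L4, FOXD4L5, FOXI1 and FOXN3. Among 3642 other genes with both, LAP-Smad2 windows were richer at 88.5%, with a median difference of 8.0. The closest summits of the lists were a median of 871 bp apart at the forkhead genes and 1240 bp apart at the others. Without FOXD4L4 and FOXD4L5, LAP-Smad2 windows were richer at 6 of 8 genes, with a median difference of 5.38 percentage points, and the closest summits were a median of 1262 bp apart, near the value of the other genes.

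**Figure D5:**
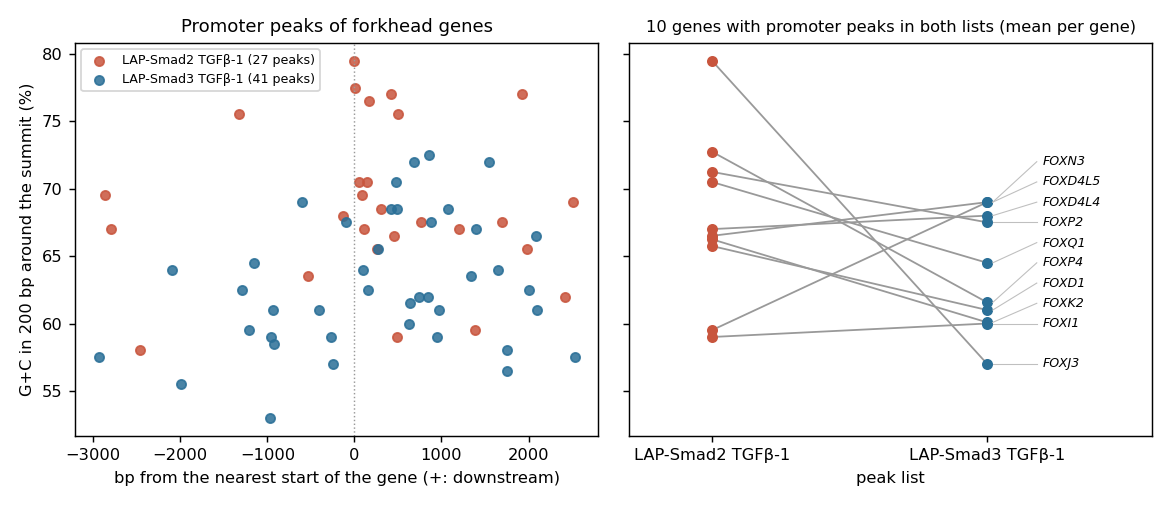
Left, G+C content of the 200 bp around each promoter summit of forkhead genes (y axis, %) against its distance in bp from the nearest start, for 27 LAP-Smad2 (red) and 41 LAP-Smad3 (blue) TGFβ-1 peaks; right, the mean per gene in both lists for the 10 genes with promoter peaks in both. The LAP-Smad2 mean is 68.9% against 63.0% on the left, and on the right 6 of 10 lines fall from LAP-Smad2 to LAP-Smad3.

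Repeat-derived windows made up a smaller share of peaks at forkhead genes than of peaks at all genes, apart from the 7 peaks labelled LAP-Smad3 untreated. In the LAP-Smad3 TGFβ-1 list 26 of 110 windows were repeat-derived, or 23.6% (16.7% to 32.4%), against 42.1% over all genes. In the LAP-Smad2 TGFβ-1 list 7 of 57 were, or 12.3% (6.08% to 23.2%), against 27.4%. With such windows set aside, a choice made after the data were seen, 30 forkhead genes had a LAP-Smad3 peak within 10 kb, or 57.7% against 51.8% of all genes. All 29 genes with a LAP-Smad2 peak kept one, or 55.8% against 47.8%. Peaks at FOXD2, FOXJ2, FOXJ3, FOXN2, FOXO3 and FOXP1 in the LAP-Smad3 list were all repeat-derived, as was the single peak of FOXD4L1.

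Forkhead motifs were rare under the peaks. Letters were searched on both strands of the 200 bp around each summit. TGTTTAC was in none of the 57 LAP-Smad2 windows, which allows up to 6.31%, and in 4 of 110 LAP-Smad3 windows, or 3.64% (1.42% to 8.98%), beside 1.03% and 1.86% over peaks at all genes. TGTTTGC was in 2 windows of each list, or 3.51% and 1.82%, beside 1.03% and 1.48%. Of the 8 windows with either core, 4 were at FOXP4, among them both of its LAP-Smad2 promoter windows, and the others were at FOXN1, FOXN3, FOXN4 and FOXO6. The FOXH1 core AATCCACA was in 1 LAP-Smad3 window, at FOXS1, and AATACACA was in none.

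The Smad half-site CAGAC was in 31.6% (21.0% to 44.5%) of LAP-Smad2 and 32.7% (24.7% to 42.0%) of LAP-Smad3 windows at forkhead genes, beside 35.1% and 34.0% at all genes. In LAP-Smad2 promoter windows it was in 5 of 27, or 18.5%, beside 33.6% in all LAP-Smad2 promoter windows, but with 200 bp taken around the interval centre it was in 8 of 27, or 29.6%, beside 32.8%. The palindrome GTCTAGAC was in none. The GC-rich Smad motif GGCGC was in 59.6% of LAP-Smad2 and 41.8% of LAP-Smad3 windows, beside 62.4% and 42.3%, and GGCCG was in 70.2% and 40.9%, beside 64.3% and 36.3%. A match is a count of letters and not a bound site.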

How the data were processed

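Anti-GFP ChIP-seq peaks of LAP-tagged Smad2 or Smad3 in MDA-MB-231 cells, untreated or with TGFβ-1, were analysed for the forkhead genes, with 1 library per condition grouped by GEO's sample labels. Per its methods, the study used Bowtie2 for aligning single-end reads (hg38) and MACS2 for peak calling, with an extension to 200 bp and a q-value limit of 0.05, and the authors deposited 1 list per library. The fold enrichment deposited by the authors is a ratio over local background, and the p-value and q-value were deposited as −log10 values. The control library, tool versions and treatment of multiply mapped reads are not given in the sources used here. The other columns used are the bounds and the summit offset.

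Peaks were joined to GENCODE release 44 (protein-coding genes, the pseudoautosomal copies on Y left out) by an overlap of at least 1 bp with the gene span widened by 10 kb, or with 3 kb on each side of any start. G+C content, motifs and the occurrence of 20-mers in hg38 were computed for the 200 bp around each summit. FOXD4 copies were aligned with edlib. Scripts ran on pandas 2.3.3, numpy 2.4.6 and pysam 0.24.0 under Python 3.11.15. Shares carry Wilson 95% intervals, which cover counting error only. Depth per library is unknown from the lists. The functions passed 4 checks on simulated data.

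The members and gene lists were chosen with earlier results of these data known. Genes were named as follows: the FOXO genes, FOXH1 and a fixed set of EMT, cell-cycle and FOXK, FOXP and FOXA members, those with promoter peaks in both TGFβ-1 lists or an untreated peak, and the 3 with most or strongest peaks per list. Others were named to account for the family, and a few genes and 1 sequence are not reported here. Alternatives changed the q-value, list length, summit, flank, promoter, overlap and window definitions and left out near-identical copies.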

Additional observations from a re-analysis of the deposited data

How the results depend on the processing

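Of 83 values under alternatives, 74 stayed within 1.5 times the count or within the interval. Without the FOXD4 group and FOXO3B, the LAP-Smad3 TGFβ-1 list had 14 promoters in place of 20, within that limit. The library labelled LAP-Smad2 untreated then had 9 genes with a peak within 10 kb in place of 16, and 3 promoters in place of 9. Widening the span by 50 kb gave 31 and, for the library labelled LAP-Smad3 untreated, 11 in place of 6. Without a flank, 24 genes had a LAP-Smad3 TGFβ-1 peak in place of 37. With 1 kb on each side of a start, 13 had a LAP-Smad2 TGFβ-1 promoter peak in place of 20. With both TGFβ-1 lists at equal length, 23 genes (44.2%) had a LAP-Smad3 peak and 12 (23.1%) a LAP-Smad3 promoter peak, and the LAP-Smad3 share was 40.6%, beside 48.5%, 20.8% and a share of 48.6% over all genes at that length. Around the interval centre, CAGAC was in 8 of 27 LAP-Smad2 promoter windows in place of 5. Equal lengths left the LAP-Smad2 TGFβ-1 list whole, so its counts could not move there, though they are among the 74 values. Equal lengths were not run for the untreated lists. Setting aside repeat-derived windows, and leaving out FOXP4 and FOXK2 from the LAP-Smad3 share, were chosen after the data were seen, and both kept every value within these limits. No paired analysis was possible because each condition had 1 library and no test was made, and for the same reason no replicate could be left out. Depth is unknown, so a gene without a peak is not shown to be unbound.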
